A study of Mus musculus with 6 samples.

Results

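The genes described here are 9 Toll-like receptor genes (Tlr1, Tlr2, Tlr3, Tlr4, Tlr6, Tlr7, Tlr9, Tlr11 and Tlr12) and Unc93b1, taken by symbol from a table of 14788 gene symbols. All 10 were present, and all 10 passed the filter on low counts that left 11504 genes for testing. RNA came from splenic type-2 conventional dendritic cells (cDC2s) of C57BL/6 mice, in 3 libraries of genotype WT and 3 of genotype Arhgef1-/-, called the knockout below. Arhgef1 encodes an exchange factor that switches on the GTPase RhoA, and the comparison asks what its loss does to the cDC2 transcriptome. The age and sex of the mice, the sorting gate, the part of the gene that was deleted and whether the loss was limited to some cells are not stated in the labels. Nor do they say whether replicates came from separate animals, so p-values here reflect a spread between libraries that could be technical.

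Toll-like receptors are membrane receptors that recognise conserved molecules of microbes and signal through TIR-domain adaptors to NF-kB and interferon regulatory factors. One class acts at the cell surface and binds lipids, lipoproteins and other envelope components. The other acts inside endosomes and binds nucleic acids or, for mouse Tlr11 and Tlr12, the parasite protein profilin. Unc93b1 is the multipass membrane protein that carries the endosomal receptors out of the endoplasmic reticulum, and without it they do not signal. In dendritic cells these receptors couple microbial sensing to maturation and cytokine release.

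Libraries held 8408325 to 11714365 counts, so that 1 count was worth 0.0853 to 0.118 CPM, the count scaled to library size with TMM factors. Arhgef1 itself was 284 ± 35.6 in WT against 129 ± 14.8 in the knockout (CPM, SD, n = 3 each; edgeR adjusted p = 6.96e-06). The source names in the labels carry a different prefix and lane for each genotype (lane 1 for WT, lane 2 for the knockout), so lane and genotype cannot be told apart. The labelled cell type was checked against its markers: Sirpa stood at 866 CPM in WT against 695 in the knockout, and Itgam at 701 and 694 CPM. H2-Ab1 stood at 8393 and 6831 CPM, whereas the mean of Clec10a was under 1 CPM in both groups (1.05 CPM in WT replicate 1). These markers moved with genotype too: 5 of 11 tested were called lower (Sirpa, Clec4a4, Cd4, Cd209a and H2-Ab1), and the 12 listed genes summed to 12386 to 13756 CPM in WT and 10364 to 11228 CPM in the knockout, most of it from H2-Ab1. Some cDC1 markers, Xcr1 and Clec9a among them, set knockout replicate 1 apart. Xcr1 had 19.8, 15.1 and 11.7 CPM in WT and 29.8, 10.1 and 6.14 CPM in the knockout. Clec9a had 18.8, 21.0 and 8.26 CPM in WT and 33.5, 6.00 and 5.71 CPM in the knockout. Batf3 and Wdfy4 did not: among the knockout libraries they were lowest in replicate 1 (36.6 and 1751 CPM). Of the macrophage markers, 14 of 18 tested were lower in the knockout, and the 19 genes of that list summed to 816 to 1272 CPM in WT and 299 to 469 CPM in the knockout.

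Of the 10 genes, 5 fell in the knockout. Tlr4, the lipopolysaccharide receptor, dropped to 37.4% of its WT level, and Tlr11, a profilin receptor, to 39.0%. Tlr7, the sensor of single-stranded RNA, fell to 58.2%, Tlr2, the shared partner of the lipoprotein receptors, to 63.6%, and Unc93b1 to 73.5%. Tlr1, Tlr3, Tlr6, Tlr9 and Tlr12 did not pass the test, and 0 of the 10 genes rose (0 also at an unadjusted p under 0.05, with DESeq2 and with limma-voom). These were 5 calls in 10 genes, at an adjusted p under 0.05 from edgeR's quasi-likelihood test over all genes. Over all genes tested 9.67% were called, 4.58% of them as lower and 5.09% as higher. In 6 of the 10 genes the highest knockout value was under the lowest WT value, as it was in 13.5% of all genes tested. The genes were proposed with earlier results of these data in view, so these counts describe the group and do not set it apart from other groups.

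**Figure D1:**
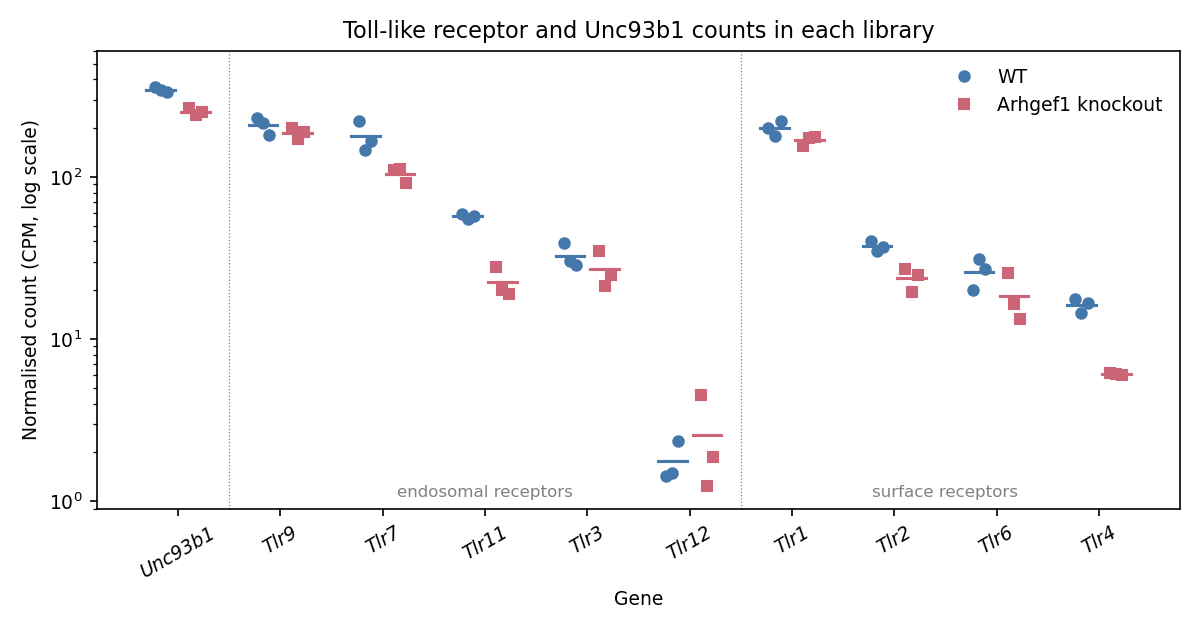
Normalised count (CPM, log axis) of each gene in each library, with circles for the 3 WT and squares for the 3 knockout libraries and a line at each group mean. The groups do not overlap for Unc93b1, Tlr7, Tlr11, Tlr1, Tlr2 and Tlr4, and they overlap for Tlr9, Tlr3, Tlr12 and Tlr6.

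Sequence upstream of the start site is shown for the endosomal receptors Tlr9, Tlr11 and Tlr12, because their counts parted (Tlr11 fell, Tlr9 and Tlr12 were not called) and these windows do not reach into an annotated exon of their gene. The sequences are those of RefSeq on GRCm38.p6, the assembly also known as mm10, and run 5′ to 3′ along the gene's strand up to the base before the start. They lie at chr9:106222348-106222597 (plus strand), chr14:50357664-50357913 (plus strand) and chr4:128618620-128618869 (minus strand). Capitals mark matches to the motifs searched.
Tlr9: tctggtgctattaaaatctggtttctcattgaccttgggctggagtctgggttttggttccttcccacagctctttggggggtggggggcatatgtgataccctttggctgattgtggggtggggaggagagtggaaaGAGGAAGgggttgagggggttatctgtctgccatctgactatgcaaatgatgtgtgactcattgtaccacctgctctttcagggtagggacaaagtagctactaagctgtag
Tlr11: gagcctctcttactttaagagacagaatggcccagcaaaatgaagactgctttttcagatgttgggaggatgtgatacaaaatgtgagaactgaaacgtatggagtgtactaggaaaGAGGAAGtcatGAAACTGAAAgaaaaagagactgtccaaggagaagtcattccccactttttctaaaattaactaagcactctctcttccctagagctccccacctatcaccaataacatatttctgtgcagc
Tlr12: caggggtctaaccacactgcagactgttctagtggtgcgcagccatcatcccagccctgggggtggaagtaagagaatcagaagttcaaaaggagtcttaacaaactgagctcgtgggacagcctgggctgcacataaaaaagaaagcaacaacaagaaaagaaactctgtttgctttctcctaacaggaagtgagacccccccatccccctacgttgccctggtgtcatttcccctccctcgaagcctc
The motifs were GAGGAAG, of the type bound by the myeloid factor PU.1, the core of the interferon-stimulated response element (GAAA, any 2 bases, GAAA), and TCACGTG, an E-box of the type bound by lysosomal gene regulators. Each was sought on both strands in the 250 bases before the start. The Tlr11 window held GAGGAAG from 133 bases and the response element core from 122 bases before the start, without overlap between them. The Tlr9 window held GAGGAAG from 112 bases before the start, and the Tlr12 window held none of the motifs. GAGGAAG occurred in 10.6% of the 32851 RefSeq windows of this length, the response element core in 2.98% and TCACGTG in 3.13%. RefSeq windows matched 7 of the 10 genes (Tlr4, Tlr7 and Unc93b1 had none). Among the windows not shown, a Tlr6 window held the response element core from 116 and from 110 bases before the start. That window lies inside the annotated span of Tlr6. A Tlr1 window held GAGGAAG from 23 bases before the start, and those of Tlr2 and Tlr3 held none of the motifs. Tlr1 and Tlr6 each had another window, which held none of the motifs either. Of these genes Tlr2 was called lower, and Tlr1, Tlr3 and Tlr6 were not called. A match is a run of letters and does not show that a factor binds there.

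Among the surface receptors, Tlr4 had the largest fold change. Tlr4 (mm10 chromosome 4, positions 66827584 to 66930284, plus strand, 3 coding exons) had 17.6, 14.5 and 16.6 CPM in WT replicates 1, 2 and 3, and 6.17, 6.10 and 5.97 CPM in knockout replicates 1, 2 and 3. All knockout libraries lay below all WT libraries and close to each other. The log2 fold change was -1.42 ± 0.27 (SE; edgeR adjusted p = 0.00215), on 53 to 70 counts per knockout library and 126 to 184 per WT library. It ran from -1.49 to -1.35 with 1 library left out and kept its call each time. The macrophage markers summed to 469, 299 and 310 CPM in the same knockout libraries. Of 8 monocyte markers tested, 3 were lower in the knockout (Csf1r, Plac8 and Lyz2, of which DESeq2 called Csf1r and Plac8). The 5 not called were Ace, Ccr2, Cx3cr1, Treml4 and Cd300e, with log2 fold changes of 0.66, 0.61, -0.42, -0.32 and -0.12. Ccr2 had 14.2 CPM in knockout replicate 1, against 1.97 and 3.33 CPM in knockout replicates 2 and 3. The list summed to 500 to 715 CPM in WT and 335 to 434 CPM in the knockout, while Ly6c2 and F13a1 were under 1 CPM in every library. The part of either cell type, or of the lower cDC2 markers, in the fall of Tlr4 or of the other receptors was not tested. In bulk RNA, fewer cells of a type and less RNA per cell cannot be told apart.

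Tlr2 pairs with Tlr1 to bind triacylated lipoproteins and with Tlr6 to bind diacylated ones. Tlr2 (chromosome 3, positions 83836272 to 83841767, minus strand, 1 coding exon) had 40.2, 34.8 and 36.9 CPM in WT and 26.9, 19.4 and 24.9 CPM in the knockout. The groups did not overlap, and the log2 fold change was -0.65 ± 0.18 (SE; edgeR adjusted p = 0.0258). The call was lost without WT replicate 1 (-0.59), WT replicate 2 (-0.70), WT replicate 3 (-0.66) or knockout replicate 2 (-0.53), with adjusted p-values of 0.0610 to 0.121.

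The partner genes did not pass. Tlr1 (chromosome 5, positions 64924679 to 64933563) had 199, 180 and 220 CPM in WT and 154, 174 and 175 CPM in the knockout, with groups that did not overlap but a log2 fold change of -0.25 (95% interval -0.46 to -0.04; edgeR adjusted p = 0.143). Tlr6, its neighbour on the same chromosome (64952031 to 64960097), had 20.1, 31.0 and 27.1 CPM in WT and 25.5, 16.3 and 13.3 CPM in the knockout. There knockout replicate 1 lay among the WT values (-0.51, 95% interval -1.02 to 0.00; edgeR adjusted p = 0.228), and without that library Tlr6 was called (-0.81, adjusted p = 0.0473). Tlr1 and Tlr6 are close paralogs. Of the stretches of 50 bases in the annotated Tlr1 transcripts, 14.8% also occur in Tlr6, and 12.3% of those of Tlr6 occur in Tlr1, so reads there could have been split or dropped. Counted together as 1 gene they had 226 ± 19.2 CPM in WT against 186 ± 5.81 CPM (SD, n = 3 each) and were not called either (-0.28, edgeR adjusted p = 0.0712). That combination was chosen after the data were seen.

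The endosomal receptors did not move as a block. Tlr11 (chromosome 14, positions 50357914 to 50363663, plus strand, 2 coding exons) had 59.1, 55.3 and 57.1 CPM in WT and 27.9, 20.2 and 18.9 CPM in the knockout. The WT values lay close together, and knockout replicate 1 was the highest of its group, still below all WT libraries. The log2 fold change was -1.36 ± 0.17 (SE; edgeR adjusted p = 5.56e-05), and from -1.54 to -1.25 with 1 library left out. Tlr11 is known as a gene of the CD8-lineage dendritic cells, the cDC1s. Of 10 cDC1 markers 1 was lower in the knockout (Cadm1), and their sum was 1882 to 2126 CPM in WT and 1866 to 1994 CPM in the knockout, most of it from Wdfy4. Knockout replicate 1 was the highest of its group for Tlr11, Tlr2, Tlr3, Tlr4, Tlr6, Tlr9, Tlr12 and Unc93b1, but not for Tlr1 and Tlr7. It was also the highest for the cDC1 markers Xcr1, Clec9a, Irf8, Cd8a, Itgae, Cadm1, Naaa and Gcet2, but the lowest for Batf3 and Wdfy4. Irf8 had 54.0 CPM in that library and at most 17.4 CPM in the other knockout libraries, against 46.0, 29.4 and 19.8 CPM in WT. The same library had the highest knockout sums of macrophage markers (469 CPM, against 299 and 310) and monocyte markers (434 CPM, against 393 and 335). Without that library the log2 fold change of Tlr11 was -1.54 (edgeR adjusted p = 3.05e-05). The part of cDC1s, or of the other cell types, in these values was not tested.

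Tlr7 (X chromosome, positions 167304929 to 167330558, minus strand, 2 coding exons) had 222, 147 and 167 CPM in WT and 110, 111 and 91.4 CPM in the knockout. WT replicate 1 stood above the other WT libraries, and all knockout libraries lay below the lowest WT value. The log2 fold change was -0.78 ± 0.14 (SE; edgeR adjusted p = 0.00104). Without WT replicate 1, which also had the highest macrophage marker sum (1272 CPM), it was -0.59 and still called (adjusted p = 0.0128). The macrophage sums of the other WT libraries, 966 and 816 CPM, were also above those of the knockout, 299 to 469 CPM. The part of macrophages in the values of Tlr7 was not tested.

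Tlr9, the sensor of unmethylated CpG DNA, had 231, 217 and 181 CPM in WT and 199, 172 and 189 CPM in the knockout. The groups overlapped, and the log2 fold change was -0.17 (95% interval -0.39 to 0.05; edgeR adjusted p = 0.368). The ratio of Tlr7 to Tlr9 counts was 0.961, 0.677 and 0.921 in WT and 0.550, 0.648 and 0.484 in the knockout, and each knockout library lay below the lowest WT ratio. This ratio is not corrected for gene length and can be compared between libraries only, and the difference between the fold changes of Tlr7 and Tlr9 was not tested. Among markers of plasmacytoid and B cells, which are known for Tlr7 and Tlr9, 1 of 5 and 0 of 8 tested were called by edgeR, the 1 as higher (Spib). Their sums were 230 to 251 and 400 to 466 CPM in WT, and 285 to 328 and 456 to 522 CPM in the knockout. Tcf4 and Spib made up most of the first sum and Cd22 most of the second, while Siglech, a defining plasmacytoid marker, had 2.99 and 2.92 CPM. The part of these cell types in the values of Tlr7 and Tlr9 was not tested.

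Tlr3, the sensor of double-stranded RNA, had 39.3, 30.4 and 28.5 CPM in WT and 34.9, 21.1 and 24.7 CPM in the knockout, with overlap between the groups (-0.29, 95% interval -0.72 to 0.14; edgeR adjusted p = 0.447). An antisense gene, Gm45542, covers 7.32% of the annotated Tlr3 exon bases, and without a stated strand setting reads there cannot be told apart. Tlr12 was near the lower limit of the table, with 15, 13 and 20 counts in WT and 39, 12 and 22 in the knockout. Its log2 fold change of 0.52 had a 95% interval from -0.78 to 1.83, so a fall or a rise within those bounds was not excluded. The sign turned without knockout replicate 1 (-0.16).

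Unc93b1 (chromosome 19, positions 3935186 to 3949340, plus strand, 11 coding exons) was the most abundant of the genes. It had 356, 344 and 332 CPM in WT and 267, 242 and 250 CPM in the knockout. Both groups were tight and did not overlap, and the log2 fold change was -0.44 ± 0.08 (SE; edgeR adjusted p = 0.00234), with a range of -0.48 to -0.42 on leaving out 1 library and no lost call. Relative to Unc93b1, the counts of Tlr9 were 0.648, 0.630 and 0.546 in WT and 0.746, 0.709 and 0.756 in the knockout. The ratio of Tlr9 to its carrier was thus higher in each knockout library than in any WT library, and the difference between both fold changes was not tested. The counts of Tlr7 relative to Unc93b1 were 0.623, 0.427 and 0.503 in WT and 0.410, 0.459 and 0.366 in the knockout. That ratio overlapped between the groups and had a lower mean in the knockout.

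**Figure D2:**
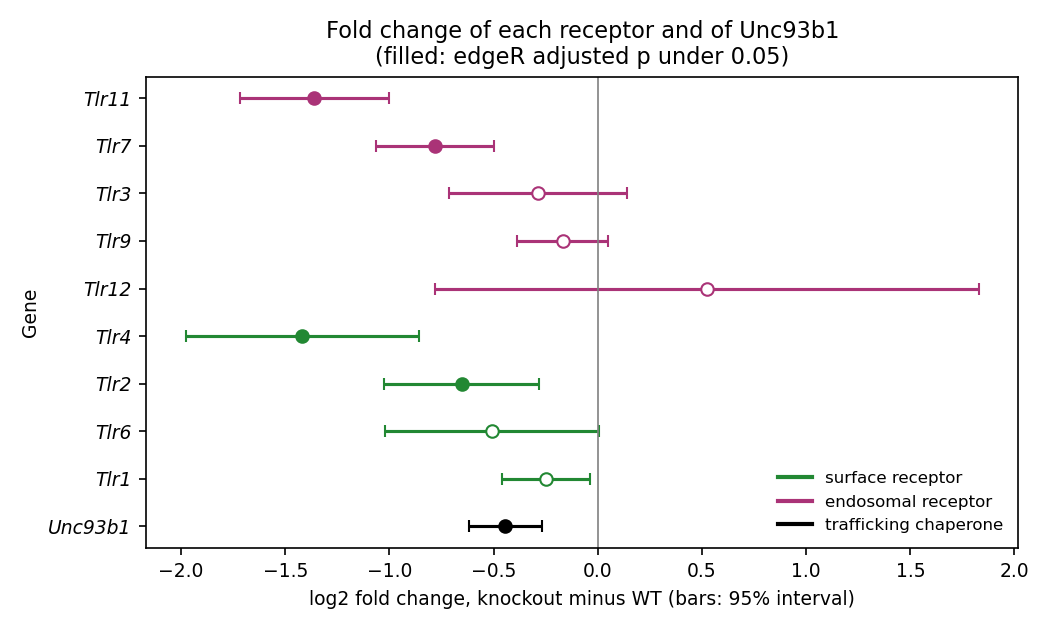
Log2 fold change of each gene, knockout minus WT, with its 95% interval, coloured by class and filled where edgeR's adjusted p was under 0.05. Tlr4 and Tlr11 lie at -1.42 and -1.36, Tlr7, Tlr2 and Unc93b1 between -0.78 and -0.44, and the interval of Tlr12 is the widest.

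**Figure D3:**
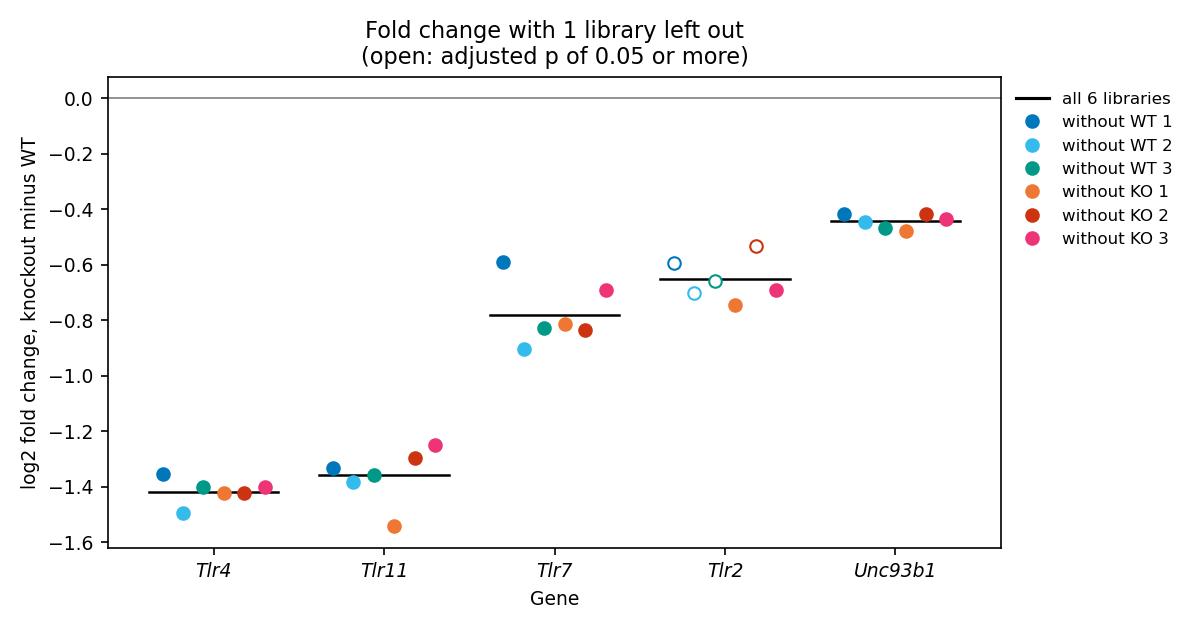
Log2 fold change of the 5 called genes with each library left out in turn, against the value with all 6 libraries (black line). Open points, where the adjusted p was not under 0.05, occur for Tlr2 only, in 4 of its 6 refits.

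Set against each other, both classes held called and uncalled genes: 2 of 4 surface and 2 of 5 endosomal receptors were lower. The median log2 fold change was -0.58 for the surface and -0.29 for the endosomal receptors, beside 0.00 over all genes tested. The stricter filter on low counts, which removed Tlr12, gave -0.59 and -0.54. With 1 library left out the medians ran from -0.78 to -0.49 and from -0.51 to -0.13, and these ranges overlapped. The surface median was the lower one in each of the 6 refits, which share libraries with each other. In these refits, as with all 6 libraries, the endosomal median was the value of Tlr3, a gene that was not called. The difference between the classes was not tested. Divided by exon length, so that genes can be compared, the surface receptors summed to 81.5, 76.1 and 88.3 CPM per kb in WT and 63.0, 64.0 and 65.3 CPM per kb in the knockout. The endosomal receptors summed to 147, 121 and 117 CPM per kb in WT and to 101, 87.2 and 87.8 CPM per kb in the knockout. Both sums were lower in every knockout library than in any WT library, at 78.2% and 71.7% of WT. By sums the endosomal class thus fell further, whereas by medians the surface class did. The surface class took 35.7%, 38.5% and 43.1% of the total per kb of these 9 receptors in WT. In the knockout it took 38.4%, 42.3% and 42.6%, and the shares of both groups overlapped. Left out of these sums were Tlr5, Tlr8 and Tlr13, at 13.3, 1.49 and 65.6 CPM per kb in WT. In the knockout they had 7.75, 0.633 and 58.3 CPM per kb. The percentages and shares, and the order of both classes in them, therefore hold for the 9 receptors only.

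**Figure D4:**
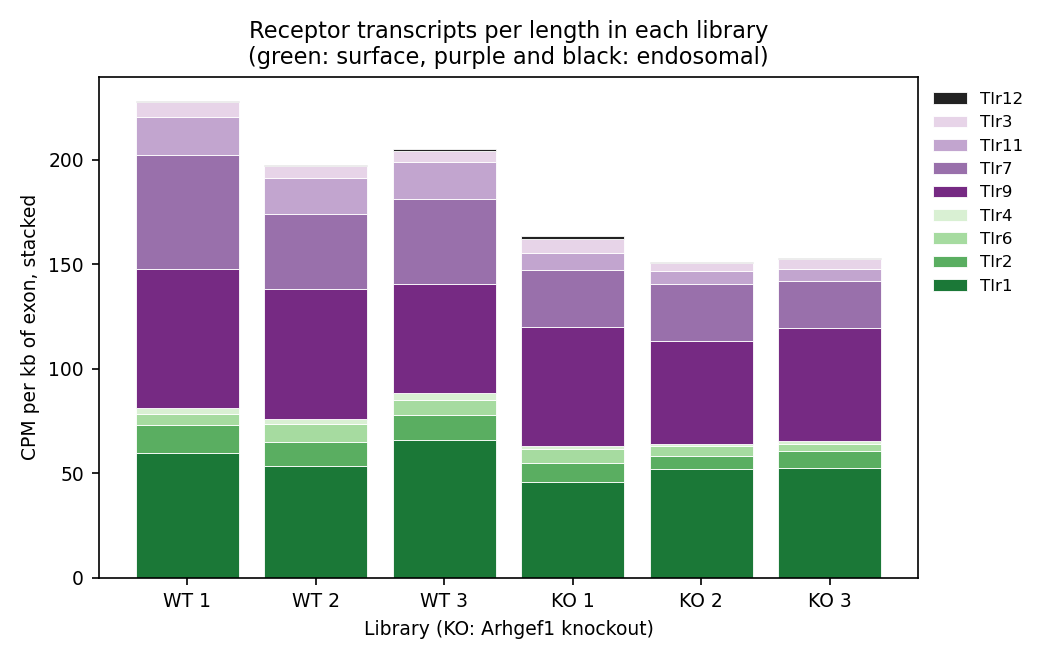
Level of the 9 receptors in each library in CPM per kb of exon, stacked with surface receptors in green and endosomal receptors in purple and black. Tlr1, Tlr9 and Tlr7 make up most of each bar, and the surface and endosomal parts are both shorter in the 3 knockout libraries.

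By level per kb, 3 of the 9 receptors stood above the rest in WT: Tlr9 at 60.3 ± 7.35, Tlr1 at 59.7 ± 6.07 and Tlr7 at 43.7 ± 9.55 CPM per kb (SD, n = 3 each). Tlr13, a receptor outside these 9, had higher means still, at 65.6 CPM per kb in WT and 58.3 CPM per kb in the knockout. The libraries' values of Tlr9 and Tlr1 overlapped, as did those of Tlr1 and Tlr7. Next came Tlr11 at 17.5, Tlr2 at 12.4, Tlr6 at 7.0 and Tlr3 at 6.29 CPM per kb, of which Tlr6 and Tlr3 overlapped, then Tlr4 at 2.93 and Tlr12 at 0.555 CPM per kb. In the knockout the order began with Tlr9 (53.7 ± 4.01) and Tlr1 (50.2 ± 3.56), and Tlr7 stood apart below them at 25.5 ± 2.70 CPM per kb. Tlr11, at 6.83 CPM per kb, then lay within the range of Tlr2 (7.88), Tlr3 (5.17) and Tlr6 (4.93). Tlr4, at 1.09 CPM per kb, overlapped with Tlr12 at 0.803. With the length of the longest transcript or the coding length in place of exon length, Tlr1 came before Tlr9.

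The nearest profiles to each called gene were sought among 8070 genes by the root mean square difference of log2 CPM, centred on each gene's mean, over the 6 libraries. For Unc93b1 they were Tnfaip3 (0.027), Scaper (0.029) and Cybb (0.031), the last encoding a subunit of the phagocyte NADPH oxidase. For Tlr2 they were the sterol hydroxylase gene Cyp27a1 (0.032), Ccpg1 (0.054) and Impact (0.070). Tlr7 was nearest to Mpg (0.083), Galm (0.106) and the helicase gene Ddx60 (0.110). Tlr4 was nearest to the C-type lectin gene Cd209a (0.113), Sall2 (0.147) and Tmem154 (0.150), and Tlr11 to Dzip1 (0.090), Sall2 (0.137) and the prostaglandin dehydrogenase gene Hpgd (0.142). Sall2 was thus near both, and Tlr4 and Tlr11 themselves differed by 0.171. With 8070 candidates and 6 libraries, some genes lie near any profile.

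Other genes of the pathway were taken from lists by role. Of 58 tested genes 1 was higher and 4 were lower, or 8.62%, close to the 9.67% called over all genes, and their median log2 fold change was -0.07. Of the remaining Toll-like receptors, Tlr5, the flagellin receptor, was lower: it had 62.1, 68.5 and 60.9 CPM in WT and 33.4, 25.1 and 52.9 CPM in the knockout (-0.77 ± 0.20, SE; edgeR adjusted p = 0.0198). Knockout replicate 3 was nearest to WT, and the call held without that library and was lost on leaving out any of the other 5 (-0.81 to -0.56). Tlr13, a sensor of bacterial ribosomal RNA, had 292, 294 and 262 CPM in WT and 250, 249 and 254 CPM in the knockout, without overlap and without a call (-0.17, edgeR adjusted p = 0.255). Tlr8 was low, at 5.36 ± 2.06 and 2.27 ± 0.857 CPM (SD, n = 3 each), and was not called either (edgeR adjusted p = 0.138).

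Of 5 co-receptors, 0 were called. As for the 9 folding genes, 5 adaptors and 8 B cell markers, 0 had an unadjusted p under 0.05 and 0 were called by DESeq2 or limma-voom. Cd180, a receptor-like relative of Tlr4, stood at 784 ± 87.8 and 733 ± 20.1 CPM, and its partner Ly86 at 211 ± 28.9 and 186 ± 8.72 CPM (SD, n = 3 each). Ly96, the lipid-binding partner of Tlr4, named here after its value was seen, had 6.96 CPM in WT against 6.83 (log2 fold change -0.03, 95% interval -0.73 to 0.66). Its ratio to Tlr4 counts ran from 0.348 to 0.500 in WT against 0.981 to 1.29. Cd14, which hands lipopolysaccharide to that pair, was at 3.51 and 2.42 CPM.

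The genes that fold and move the receptors gave 0 calls in 9, with log2 fold changes between -0.13 and 0.11. Hsp90b1, the endoplasmic reticulum chaperone of the family, stood at 893 ± 68.0 and 957 ± 101 CPM (SD, n = 3 each; edgeR adjusted p = 0.542), and Ap3b1, a subunit of the AP-3 sorting complex, at 286 and 289 CPM. Among endosomal proteases and nucleases, 2 of 8 tested genes fell. At an unadjusted p under 0.05 there were 6, all lower (Ctsl, Dnase2a, Pld3 and Pld4 beside these 2). The share of all genes tested at that threshold was not counted. Ctsl, Dnase2a, Pld3 and Pld4 had edgeR adjusted p-values of 0.204, 0.137, 0.119 and 0.147. Of these, only Dnase2a had groups that did not overlap. Among the 8, limma-voom called 3, Ctsl among them, and DESeq2 2. Ctsb went from 469, 361 and 372 CPM to 265, 237 and 240 CPM (-0.70 ± 0.10, SE; edgeR adjusted p = 2.14e-04). Ctss, a cathepsin that trims the endosomal receptors and the invariant chain, went from 1091, 1093 and 1160 CPM to 831, 834 and 773 CPM (-0.46 ± 0.07, SE; edgeR adjusted p = 3.60e-04). Cathepsins are also abundant in macrophages, whose markers were lower in the same libraries; their part in this was not tested.

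Adaptors and signalling enzymes showed 0 calls in 5 and 0 in 16 tested genes. Ticam2 (152 and 167 CPM) and Pik3ap1 (170 and 153 CPM) were the most abundant adaptors, and Tab2 (542 and 583 CPM) and Irak1 (268 and 254 CPM) the most abundant enzymes. At an unadjusted p under 0.05, 2 enzymes (Irak4 and Chuk, both lower) passed, and DESeq2 called 1 of them, Chuk, and limma-voom 0. The share of all genes tested at that threshold was not counted here either. Downstream, Nfkb1, the gene of the p105 precursor of NF-kB, rose from 475, 531 and 526 CPM to 655, 645 and 712 CPM (0.39 ± 0.08, SE; edgeR adjusted p = 0.00353), and the other 5 transcription factor genes were not called, among them Rel at 920 and 939 CPM. Among inhibitors Tnfaip3, the ubiquitin-editing enzyme also known as A20, fell from 213, 209 and 193 CPM to 162, 145 and 155 CPM (-0.42 ± 0.09, SE; edgeR adjusted p = 0.00853); the call was lost without WT replicate 1 (-0.39, adjusted p = 0.0555). Cyld, a deubiquitinase, stood at 429 and 390 CPM and was not called.

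**Figure D5:**
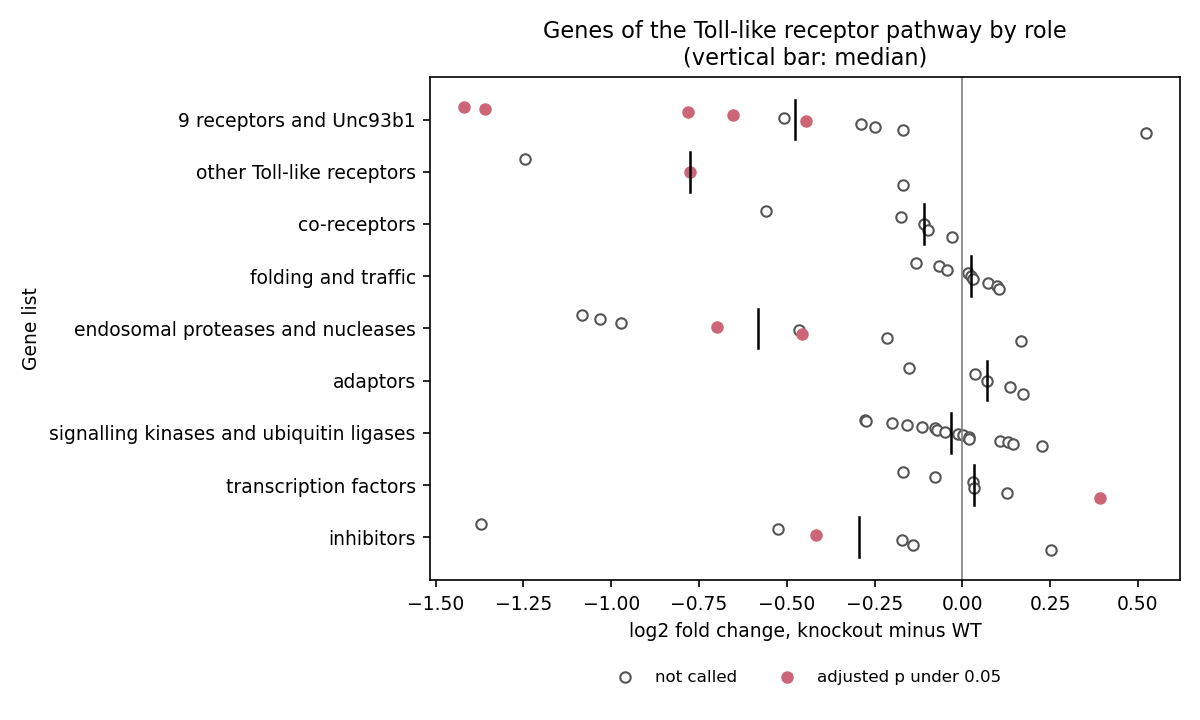
Log2 fold change of the 9 receptors with Unc93b1 and of each pathway gene tested, by role, filled where edgeR's adjusted p was under 0.05, with a bar at the median of each list. Called genes lie at -0.42 or below, apart from Nfkb1 at 0.39, and the folding, adaptor and enzyme lists hold none.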

How the data were processed

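The deposited table held raw read counts per gene symbol for 6 libraries, with no normalization. STAR, HTSeq, DESeq2 and mm10 appear in the submitters' processing notes, without versions; annotation and strand setting: not given in the sources used here. Libraries were grouped by title. The test was that of edgeR 4.0.16 under R 4.3.3: filterByExpr (minimum count 10), TMM, a quasi-likelihood fit with genotype as its term, and Benjamini-Hochberg adjustment over all tested genes, called under 0.05. SEs were the fold change over the root of F, and 95% intervals from the test's degrees of freedom. CPM used TMM-scaled library sizes. Counting error is part of the spread between libraries. Positions, exon lengths and transcripts came from GENCODE M21 (mm10), promoters from RefSeq (GRCm38.p6). The procedure was tested on simulated counts.

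The genes and lists were chosen with earlier results of these data known. Text names Arhgef1, all 10 genes, called pathway genes, the 2 most abundant of each pathway list and the 3 nearest profiles of each called gene; other names, such as cell type markers, Ly96, Cd14, Tlr8, Tlr13, Ctsl, Dnase2a, Pld3, Pld4, Irak4 and Chuk, fall outside that rule or were chosen after their values were seen. Neutrophil markers were tested too: 0 of 2 were called by edgeR, DESeq2 or limma-voom, and 0 had an unadjusted p under 0.05. Alternatives were other scalings, other filters, DESeq2 1.42.0, limma-voom 3.58.1, the replicate number as a block, other gene lengths and each library left out.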

Additional observations from a re-analysis of the deposited data

How the results depend on the processing

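Over other scalings, filters, DESeq2's Wald test and limma-voom the same 5 genes (Tlr2, Tlr4, Tlr7, Tlr11 and Unc93b1) were called lower and 0 higher; with 1 library left out, 4 to 6 were called lower. Of 141 refitted fold changes of the 10 genes, 140 kept their sign, the exception being Tlr12 without knockout replicate 1. The 141 include the fit of Tlr1 and Tlr6 counted together, entered once under each gene. Over all genes, 310 to 583 were called higher and 264 to 489 lower with 1 library left out, against 586 and 527, and 2 to 4 pathway genes were called lower, against 4. Without WT replicate 1 Tlr5 and Tnfaip3 lost their calls. The smaller number of samples is part of each such refit. The stricter filter removed Tlr12 and moved the endosomal median to -0.54. With the replicate number as a block, 496 genes were called higher and 449 lower, and the same 5 of the 10 genes were lower. Same-numbered libraries did not deviate together (correlations of 0.05, -0.06 and -0.05 over 8679 genes). Such values cannot show whether samples of equal number were collected or processed together, and the labels do not say. Depth limits Tlr12, at 12 to 39 counts per library.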
